A study of Caenorhabditis elegans with 12 samples.

Results

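The 10 genes described here are the 5 Wnt ligand genes lin-44, egl-20, cwn-1, cwn-2 and mom-2, the 4 Frizzled receptor genes mig-1, lin-17, cfz-2 and mom-5, and the beta-catenin gene bar-1 of the nematode Caenorhabditis elegans. They were chosen by gene name from a table of 21982 genes, and all 10 were present. RNA had been sequenced from whole worms of strain KH2235, which carries a splicing reporter made from a minigene of ret-1. The Green group consists of worms with mostly GFP on day 6, and the Red group of worms of that day with mostly mCherry. Strain, reporter and day are shared by both groups. There were 6 libraries a group, paired 1 to 1 in 6 batches. Neither the promoter of the reporter nor the number of cultures is given in the sources used here. The p-values below therefore cover the spread between libraries, which may be technical.

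Wnts are secreted, lipid-modified proteins that bind Frizzled receptors, which span the membrane several times. In the canonical branch, Dishevelled then restrains a complex that destroys beta-catenin, and beta-catenin enters the nucleus to act with the TCF protein POP-1. In C. elegans, MOM-2 and its receptor MOM-5 polarise blastomeres of the early embryo, EGL-20 with LIN-17, MIG-1 and BAR-1 steers the migration of neuroblasts, and LIN-44 with LIN-17 orients cell divisions in the tail. These roles are best known from embryos and larvae.

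Recovered totals ran from 30185155 to 87141961 reads a library. On the first principal component, with 45.3% of the variance, all Green libraries lay on 1 side and all Red libraries on the other. Red replicate 6 stood apart on the second component, with a score of 0.92 where the other libraries lay between -0.23 and 0.06. The samples are labelled as whole bodies, and each of germline, muscle, neurons and epidermis had markers that were detected. The epidermal markers dpy-4, nhr-73 and grd-10 were at 0 in at least 1 library.

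Of the 10 genes, 5 differed between the groups and 5 did not pass the test. The Wnt gene mom-2 was 1.49-fold higher in Green worms, whereas the Wnt genes cwn-1 and cwn-2 and the Frizzled genes lin-17 and cfz-2 were lower in Green worms, with cfz-2 at a mean of 0.238 of its Red level. Those that did not pass were lin-44, egl-20, mig-1, mom-5 and bar-1. A normalized count is a gene's read count divided by the size factor of its library. The test was limma on log2(normalized count + 1), and a gene passed at a Benjamini-Hochberg adjusted p under 0.05. It covered the 14618 genes whose mean normalized count reached 10, and all 10 genes were among them. Folds below are on that scale, Green against Red, and understate the change of low genes.

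Among the 10 genes, 1 was higher and 4 were lower, where 19.02% of all genes tested passed as higher and 20.1% as lower, 39.1% in all. In the same 5 genes the Green and Red libraries did not overlap, in 1 upward and in 4 downward. Over all genes tested this held for 7.06% upward and 9.71% downward. The median log2 fold was -0.38 for the 10 genes and 0.04 for all genes tested.

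These 5 calls held under every alternative tried, and 5 to 7 of the 10 genes passed. With the batch as a block 6 of the 10 passed (45.8% of all genes), with edgeR 6 (38.4%), with quantile normalization 5 (32.2%) and without Red replicate 6 also 6 (54.8%). When libraries were centred on their median gene, the median log2 fold of all genes shifted by 0.13, to 0.16. Then 28.5% of all genes passed as higher and 15.99% as lower, 44.5% in all, with 2 of the 10 genes higher and 4 lower.

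**Figure D1:**
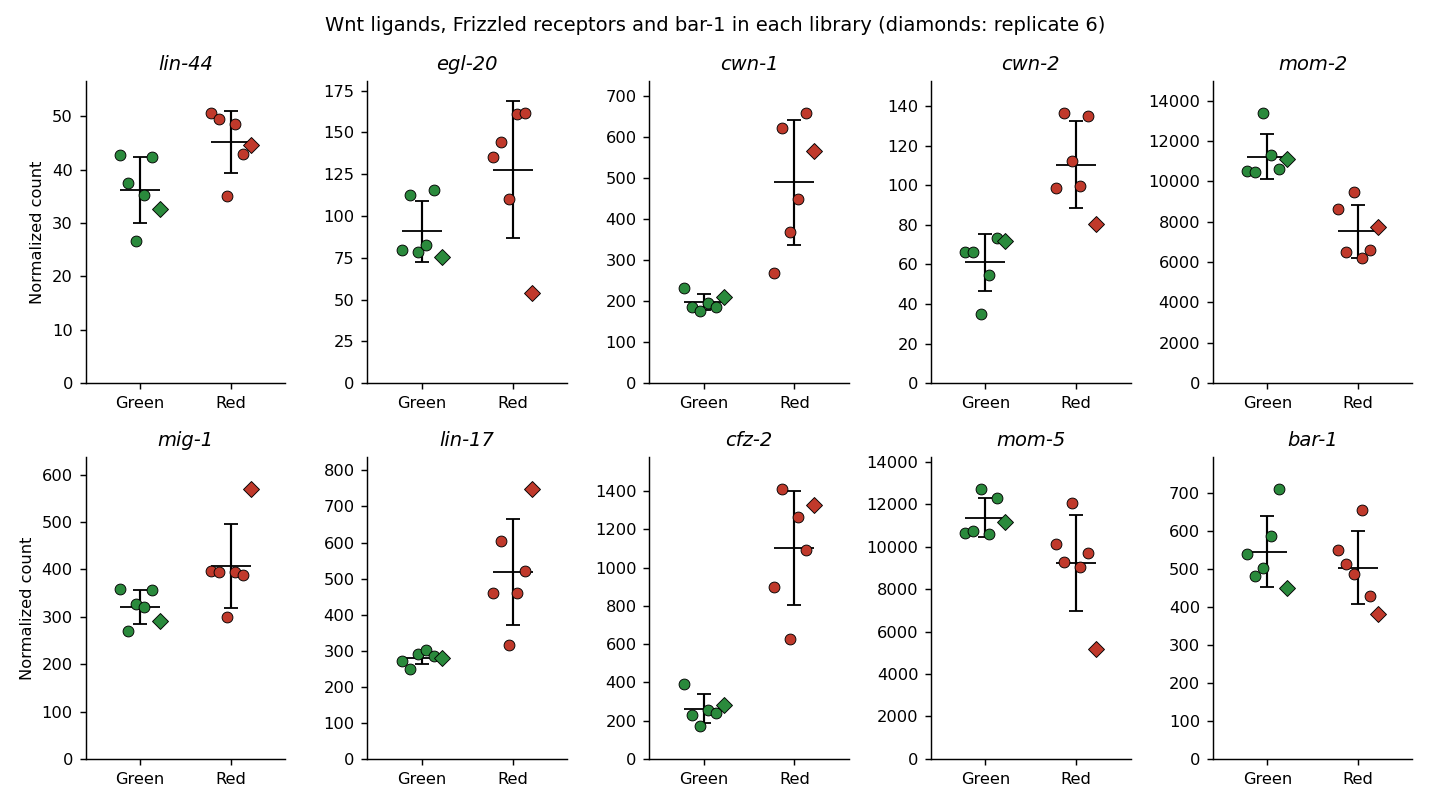
Normalized counts (y axis, from 0) of the 10 genes in the 6 Green and 6 Red libraries. Points are libraries, diamonds mark replicate 6, and bars give the mean ± SD; cwn-1, cwn-2, lin-17 and cfz-2 lie lower in every Green library, mom-2 lies higher in every Green library, and the other 5 genes overlap.

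Among the ligands, mom-2 (V, 8355988 to 8358185, WBcel235) had the highest level, also per kb of exon. It ran from 10441 over a median of 10858 to 13368 normalized counts in Green, against 6193, 7182 and 9484 in Red. Every Green library lay above every Red library. The log2 fold was 0.59 ± 0.11 (SE, limma adjusted p = 0.0011), and mom-2 was higher in Green in 6 of 6 batches, by 0.28 in batch 1 to 0.87 in batch 4.

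Oocyte and germline markers moved in the same direction as mom-2, a gene with a maternal role in the embryo. Of 14 oocyte and germline markers 13 rose and 0 fell in Green, beside 19.02% and 20.1% of all genes tested. The 14 had a median log2 fold of 0.56, and none was at 0 in any library. Their summed normalized counts ran from 634155 to 783665 in Green and from 354481 to 599549 in Red. Red replicates 2, 4 and 5 were the 3 lowest libraries both for mom-2, with 6522, 6193 and 6625, and for this sum, with 398593, 386256 and 354481. The order was not the same throughout. Red replicate 6 had the highest Red sum, 599549, but its mom-2 value, 7739, was below those of Red replicates 1 and 3, 8629 and 9484. The part of the germline in the mom-2 difference was not tested. In whole worms, fewer cells of a type and less RNA per cell cannot be told apart.

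The ligand gene cwn-1 (II, 130983 to 133598) had the largest difference among the Wnts. CWN-1 acts redundantly with other Wnts in cell migration. Its normalized counts ran from 176 over a median of 191 to 231 in Green, against 269, 508 and 658 in Red. The groups did not overlap, and the spread was wider in Red (SD 153) than in Green (SD 20.2). The log2 fold was -1.24 ± 0.19 (SE, limma adjusted p = 0.00031). Within batches the difference ran from -0.22 in batch 1 to -1.82 in batch 5. Red replicate 1 was the lowest Red library and Green replicate 1 the highest Green library.

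The ligand gene cwn-2 (IV, 10067816 to 10070251), which acts in neuronal migration and in the placement of the nerve ring, ran from 34.96 over a median of 66.2 to 73.1 in Green, against 80.5, 106 and 136 in Red. All Green libraries lay below all Red libraries, although the highest Green and the lowest Red value were close. Its log2 fold was -0.86 ± 0.20 (SE, limma adjusted p = 0.0049), and the within-batch differences ran from -0.16 in batch 6 to -1.66 in batch 3. cwn-2 shares 50 exonic bases with W01B6.3 on the opposite strand, a gene with a mean of 14.4 normalized counts, and reads there cannot be told apart if counting ignored strand.

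The Wnt genes egl-20 and lin-44 did not pass. For egl-20 (IV, 9812357 to 9815532), whose protein forms a gradient from the tail, normalized counts were 75.5, 81.2 and 115.5 (lowest, median and highest) in Green, against 54.1, 140 and 161 in Red. Red replicate 6 was the lowest of all 12 libraries, while the other 5 Red libraries started at 110. At -0.43, the log2 fold had a 95% interval from -0.95 to 0.10 (limma adjusted p = 0.18). Without Red replicate 6 it was -0.65 and passed (limma adjusted p = 0.0042), and without batch 6 it was -0.61 (0.0098). Over all alternatives the adjusted p ran from 0.0042 to 0.46.

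The lowest level of the 10, also per kb of exon, was that of lin-44 (I, 4126056 to 4129310), at 26.6, 36.4 and 42.7 in Green, against 35.1, 46.6 and 50.5 in Red. It rested on 16 to 60 reads in Green libraries and 29 to 71 in Red libraries. In 6 of 6 batches the Green value was the lower one, with differences of -0.01 to -0.45, and the log2 fold of -0.32 had an interval from -0.70 to 0.06 (limma adjusted p = 0.16). Under quantile normalization its log2 fold was 0.028, the opposite sign.

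Among the receptors, cfz-2 (V, 3441504 to 3444877) had the largest difference of the 10 genes. CFZ-2 is a Frizzled with roles in the migration of neurons and in axon branching. Its normalized counts were 173, 249 and 394 (lowest, median and highest) in Green, against 627, 1179 and 1410 in Red. The lowest Red library was well above the highest Green library. The log2 fold was -2.06 ± 0.21 (SE, limma adjusted p = 2.9e-05), with batch differences from -1.19 in batch 1 to -2.61 in batch 2.

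The receptor gene lin-17 (I, 2706883 to 2717549), which acts in asymmetric divisions and neuroblast migration, was tightly spread in Green. It had 251, 282 and 302 normalized counts in Green, against 316, 491 and 748 in Red. The groups did not overlap, but Red replicate 3, at 316, was near the Green range. The log2 fold was -0.84 ± 0.16 (SE, limma adjusted p = 0.0016), and the batch differences ran from -0.12 in batch 3 to -1.42 in batch 6.

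The receptor genes mig-1 and mom-5 differed less. For mig-1 (I, 948569 to 957456), which acts with lin-17 in neuroblast migration, the values were 269, 325 and 358 in Green, against 299, 395 and 570 in Red. The top value belongs to Red replicate 6, and batch 3 went the other way from the other 5. Its log2 fold was -0.32 with an interval from -0.62 to -0.03 (limma adjusted p = 0.075). It passed with edgeR, with DESeq2 and with limma without Red replicate 3 (adjusted p = 0.041, 0.031 and 0.021), and over all alternatives the adjusted p ran from 0.021 to 0.38.

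For mom-5 (I, 9965574 to 9970037), the Frizzled gene with the highest level, also per kb of exon, normalized counts were 10600, 10956 and 12711 in Green, against 5187, 9478 and 12044 in Red. The groups overlapped, and Red replicate 6 was the lowest library by a wide margin. The difference was positive in 6 of 6 batches, but between 0.07 and 0.34 in batches 1 to 5 and 1.10 in batch 6. Its log2 fold was 0.34 (limma adjusted p = 0.090), or 0.18 without Red replicate 6. The limma adjusted p was 0.048 with the batch as a block, 0.025 with median centring and 0.034 without Red replicate 3, in a range up to 0.46 over the alternatives. Red replicate 6 had the highest Red sum of oocyte and germline markers, 599549, and the part of the germline in the mom-5 values was not tested.

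The beta-catenin gene bar-1 (X, 7166005 to 7170625) did not pass, and its differences within batches had both signs. It had 451, 521 and 711 normalized counts in Green, against 381, 501 and 656 in Red, and it was higher in Green in 3 of 6 batches. The log2 fold of bar-1 was 0.12 with an interval from -0.18 to 0.42 (limma adjusted p = 0.51).

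**Figure D2:**
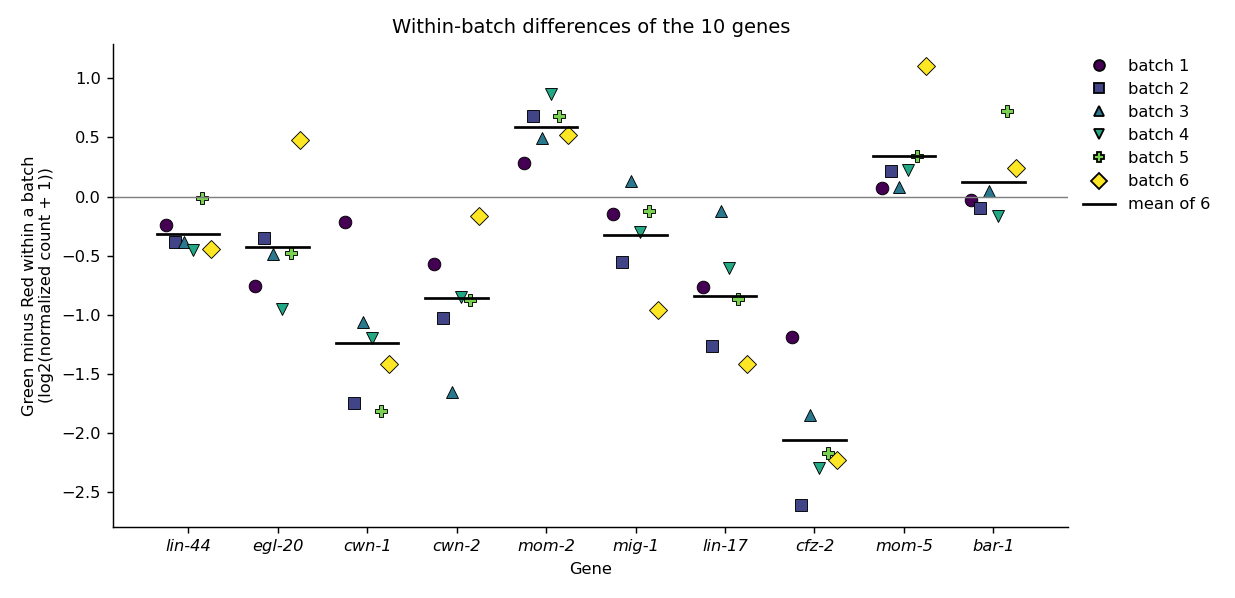
Green minus Red difference in log2(normalized count + 1) (y axis) within each of the 6 batches for each gene (x axis). Points are batches and lines are means; cfz-2, cwn-1, cwn-2, lin-17 and lin-44 are below 0 and mom-2 and mom-5 above 0 in 6 of 6 batches, while batch 6 stands apart for egl-20 (0.47) and mom-5 (1.10).

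Within the Red group, 1 library recurred at the Green side. On the log2 scale, Red replicate 3 was the Red library nearest the Green mean for 7 of the 10 genes, namely lin-44, egl-20, mom-2, mig-1, lin-17, cfz-2 and mom-5. It had the lowest Red value for lin-44, mig-1, lin-17 and cfz-2 and the highest for mom-2 and mom-5. Red replicate 1 was nearest for cwn-1 and bar-1, and Red replicate 6 for cwn-2. Over all genes tested, Red replicate 3 also had the Red score nearest the Green side on the first principal component, at -0.13. The other Red libraries ran from -0.41 to -0.17.

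Summed levels of larval moult genes and of zygotic embryo genes were lower in every Green library than in any Red library, as were cfz-2, cwn-1, cwn-2 and lin-17. Of 17 larval moult genes 13 fell and 1 rose in Green, beside 20.1% and 19.02% of all genes tested. The 17 had a median log2 fold of -1.50, and none was at 0 in any library. Their summed normalized counts ran from 7626 to 10610 in Green and from 11256 to 22109 in Red, with the lowest Red sum in replicate 3. The gene that rose was nhr-23, with a log2 fold of 0.49 and the highest Green mean of the list, 4028. Of 15 zygotic embryo genes 9 could be tested, of which 4 fell and 1 rose, with a median of -0.54. Their sums ran from 1315 to 2058 in Green and from 2169 to 3363 in Red, and med-1, med-2, sdz-23 and hlh-27 were at 0 in at least 1 library. Here the gene that rose was pes-1, with a log2 fold of 0.46. The sums of this list weigh sdz-28 most, which fell and had the highest mean in both groups, 578 in Green and 1295 in Red. The part of moulting or embryonic cells in the Wnt and Frizzled differences was not tested.

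Pan-neuronal markers were mostly lower and body wall muscle markers mostly higher in Green. For the counts below, 19.02% of all genes tested passed as higher and 20.1% as lower. Of 14 pan-neuronal genes 8 fell and 1 rose, with a median log2 fold of -0.34 and sums of 24272 to 26638 in Green and 25317 to 31061 in Red. In body wall muscle, 8 of 14 markers were higher and 1 was lower in Green, with a median of 0.44 and sums of 49956 to 78831 in Green and 37911 to 69188 in Red. The seam and epidermis list had 2 risen and 2 fallen genes of 11 tested with a median of -0.17, and its sums overlapped, at 10976 to 12538 in Green and 9852 to 14564 in Red. The somatic gonad and vulva list had 2 risen and 3 fallen of 9 tested, with a median of -0.64 and sums of 5642 to 6221 in Green and 4944 to 5988 in Red. These sums weigh lin-3 most, which rose and had the highest mean of the list, 3678.5 in Green and 2906 in Red. In these last 2 lists dpy-4, nhr-73, grd-10, egl-17 and ckb-3 were at 0 in at least 1 library, and none of the neuronal or muscle genes was. The part of these cells was likewise not tested.

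**Figure D3:**
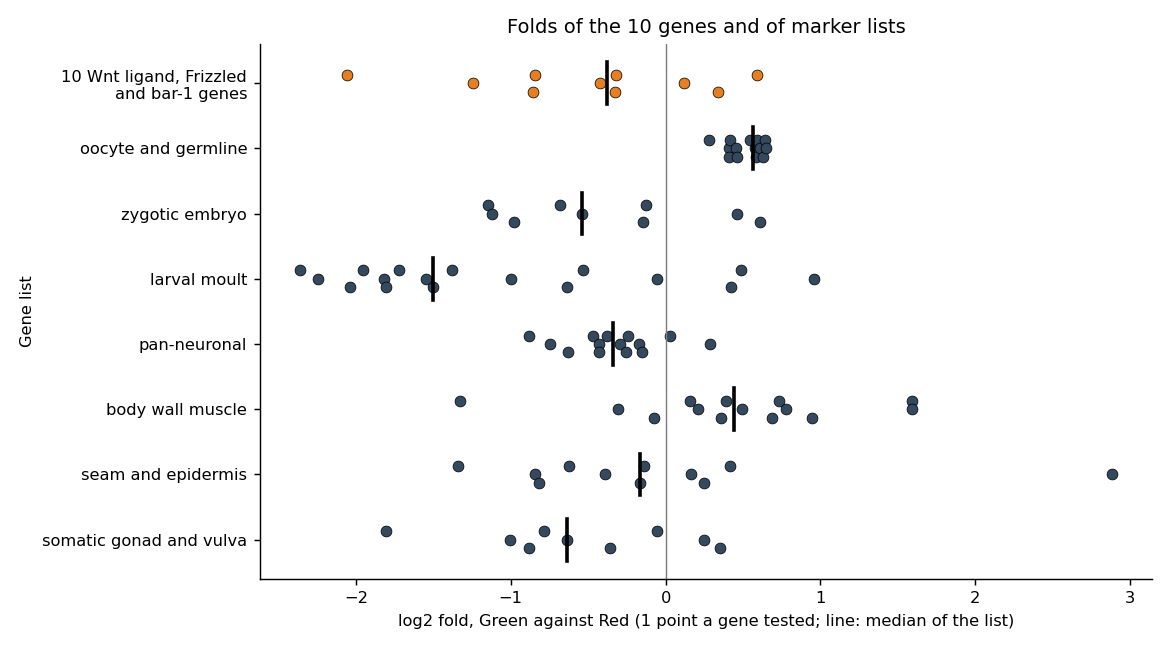
Log2 folds, Green against Red (x axis), of the 10 genes (top, orange) and of the genes tested in 7 marker lists (y axis). Points are genes and lines are list medians; the oocyte and germline list has a median of 0.56, the larval moult list one of -1.50, and the 10 genes spread from -2.06 to 0.59.

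Levels were compared between genes per kilobase of exon, the summed length of all annotated exons of a gene. In Green worms mom-2 led with 7302 ± 720 normalized counts per kb, followed by mom-5 with 4574 ± 368 (SD, n = 6). The next gene was bar-1 at 210 ± 36.1, and lin-44 was last at 26.3 ± 4.45. In Red worms mom-2 had 4900 ± 858 and mom-5 had 3715 ± 906 (SD, n = 6), and their ranges overlapped. The third gene in Red was cfz-2, at 532 ± 143, which ranked sixth in Green at 127 ± 35.5, where its range overlapped those of lin-17 and cwn-1.

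The ranges of several neighbours in this order overlapped. In Green these were bar-1 with mig-1, lin-17 with cfz-2, cfz-2 with cwn-1, egl-20 with cwn-2, and cwn-2 with lin-44. In Red the ranges of cfz-2, cwn-1, lin-17, mig-1 and bar-1 overlapped from each gene to the next, as did those of cwn-2, egl-20 and lin-44. A gap without overlap separated mom-5 from the lower genes in both groups.

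**Figure D4:**
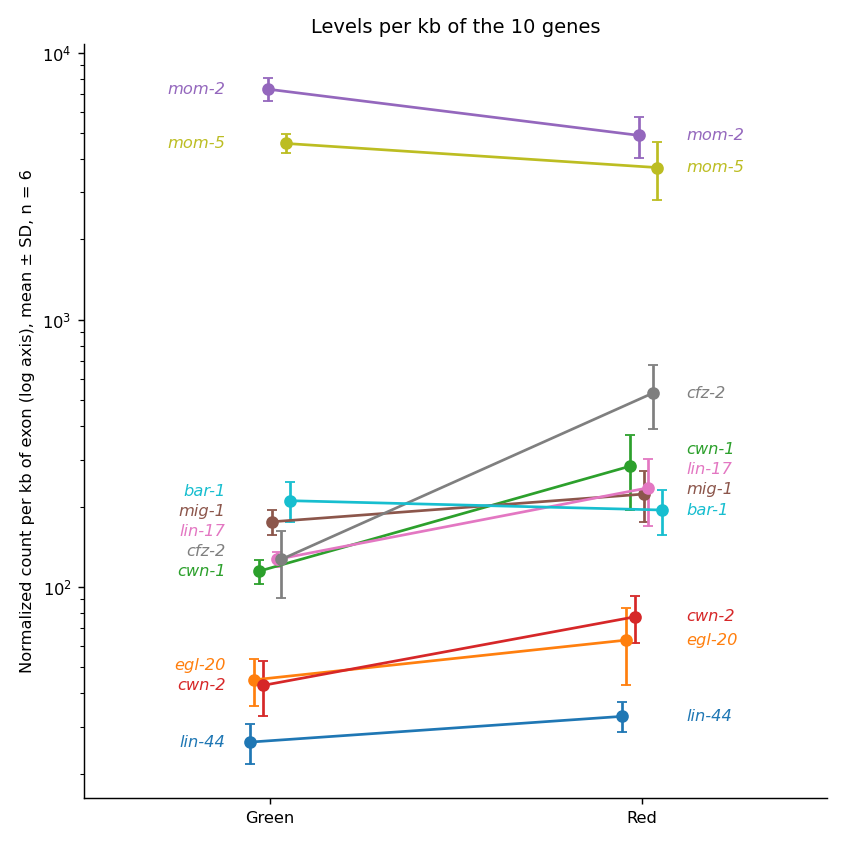
Normalized counts per kb of exon (y axis, log scale) of the 10 genes in Green and Red worms, as mean ± SD over 6 libraries. Lines join the 2 means of a gene; mom-2 and mom-5 lie above all others in both groups, and cfz-2 is at 127 in Green and 532 in Red.

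The make-up of the ligand and receptor pools is given by shares of the level per kb. Of the summed level per kb of the 5 Wnt genes, mom-2 made up 96.9% ± 0.54 in Green and 91.2% ± 2.86 in Red, and cwn-1 made up 1.54% ± 0.24 in Green and 5.50% ± 2.14 in Red (SD, n = 6). Of the 4 Frizzled genes, mom-5 made up 91.4% ± 1.21 in Green and 77.9% ± 9.04 in Red. The share of cfz-2 was 2.57% ± 0.81 in Green and 11.8% ± 4.61 in Red. Red replicate 6 had the lowest mom-5 share, 61.8%, and the highest cfz-2 share, 18.9%. The ranges of the mom-2 share, from 96.5% to 97.9% in Green and from 88.0% to 94.5% in Red, did not overlap, nor did those of the mom-5 share. These shares describe whole-worm RNA and were not tested.

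Ratios within a library do not depend on the 1 factor by which each library is scaled, apart from the pseudocount of 1. Quantile normalization can change them. The log2 ratio of cfz-2 to mig-1, in normalized counts + 1 not divided by length, ran from -0.92 to 0.14 in Green and from 1.07 to 1.83 in Red, without overlap. For cfz-2 to lin-17 it ran from -0.74 to 0.54 in Green and from 0.83 to 1.46 in Red. For mom-2 to mom-5 it overlapped, from -0.21 to 0.09 in Green and from -0.55 to 0.58 in Red. That overlap came from Red replicate 6 alone, which had the top ratio and the lowest mom-5 value. Every other Red library lay below every Green library. The Frizzled genes thus differed unequally between the groups.

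The genes whose profiles over the 12 libraries lay nearest each of the 5 called genes were taken by the root mean square difference in centred log2 values. For mom-2 these were spn-4, a maternal RNA-binding protein gene that is also among the germline markers, and the polo-like kinase gene plk-3, at 0.053 and 0.054. For cfz-2 they were the SOX factor gene sox-2 and dsl-3, a gene of the Notch ligand family, at 0.12 and 0.14. For cwn-1 they were the myogenic factor gene hlh-1 and mnp-1, at 0.12 and 0.15. hlh-1 is also the 1 muscle marker that fell, in a list where 8 of 14 rose. For cwn-2 they were the F-box gene fbxc-8 and the nuclear receptor gene nhr-201, at 0.15 and 0.18, and for lin-17 they were kal-1 and F46C8.3, at 0.10 and 0.11. The medians over all 11283 candidate genes were between 0.38 for mom-2 and 1.17 for cfz-2. The nearest genes lie below these medians by choice. Centring kept the difference between Green and Red, so genes with a like fold come out near each other. Shared regulation was not tested.

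Other genes of the pathway were read from lists arranged by role. Of 39 such genes 38 were tested, 9 rose and 6 fell in Green, which is near the background of 19.02% and 20.1% of all genes. The count of risen genes was 2 under quantile normalization, of which snx-3 was among the 9, and 4 without Green replicate 3 or any 1 of Red replicates 2, 4 and 5. end-1 was not tested, its mean being 5.63 ± 2.12 in Green worms and 8.10 ± 2.56 in Red worms (SD, n = 6 each).

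Genes for Wnt secretion were higher where they passed. Of 8 genes 4 rose and 0 fell, beside 19.02% and 20.1% of all genes tested. The median log2 fold of the 8 was 0.21, against 0.04 for all genes and 0.11 for all genes of mean at least 50. The 4 that rose were the retromer genes vps-35 and vps-26, the sorting nexin gene snx-3 and the myotubularin gene mtm-6. Their log2 folds were 0.34, 0.24, 0.37 and 0.30, and snx-3 returns the Wnt carrier to the Golgi. In normalized counts snx-3 averaged 3363 ± 139 in Green worms and 2621 ± 342 in Red worms (SD, n = 6 each). Under quantile normalization snx-3 still passed and the other 3 did not, and mtm-6 also missed the threshold without Green replicate 3 or any 1 of Red replicates 2, 4 and 5. For the Wnt carrier gene mig-14 the log2 fold was 0.08 (limma adjusted p = 0.39), or -0.078 under quantile normalization. vps-26, at a limma adjusted p of 0.0496, missed the threshold in 15 of 23 alternatives.

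Genes for planar polarity and other receptors were lower where they passed. Of 7 genes 4 fell and 0 rose, beside 20.1% and 19.02% of all genes tested. The median log2 fold of the 7 was -0.61. The Flamingo cadherin gene fmi-1 averaged 261 ± 69.5 in Green worms and 974 ± 316 in Red worms (SD, n = 6 each, normalized counts), with -1.86 as its log2 fold (limma adjusted p = 6.5e-05). The Prickle gene prkl-1 and the Van Gogh gene vang-1 fell, with log2 folds of -0.96 and -0.42, and so did plr-1, a membrane ubiquitin ligase gene that lowers Frizzled at the cell surface, at -0.75. With median centring vang-1 did not pass (limma adjusted p = 0.068). The Ror gene cam-1 and the Ryk gene lin-18, which encode other Wnt receptors, had log2 folds of 0.07 and -0.07, and the secreted Frizzled-related gene sfrp-1 one of -0.61 (limma adjusted p = 0.43, 0.62 and 0.19). The signs of cam-1 and lin-18 depended on scaling, since quantile normalization gave -0.098 for cam-1 and 0.087 for lin-18, and median centring gave 0.054 for lin-18.

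**Figure D5:**
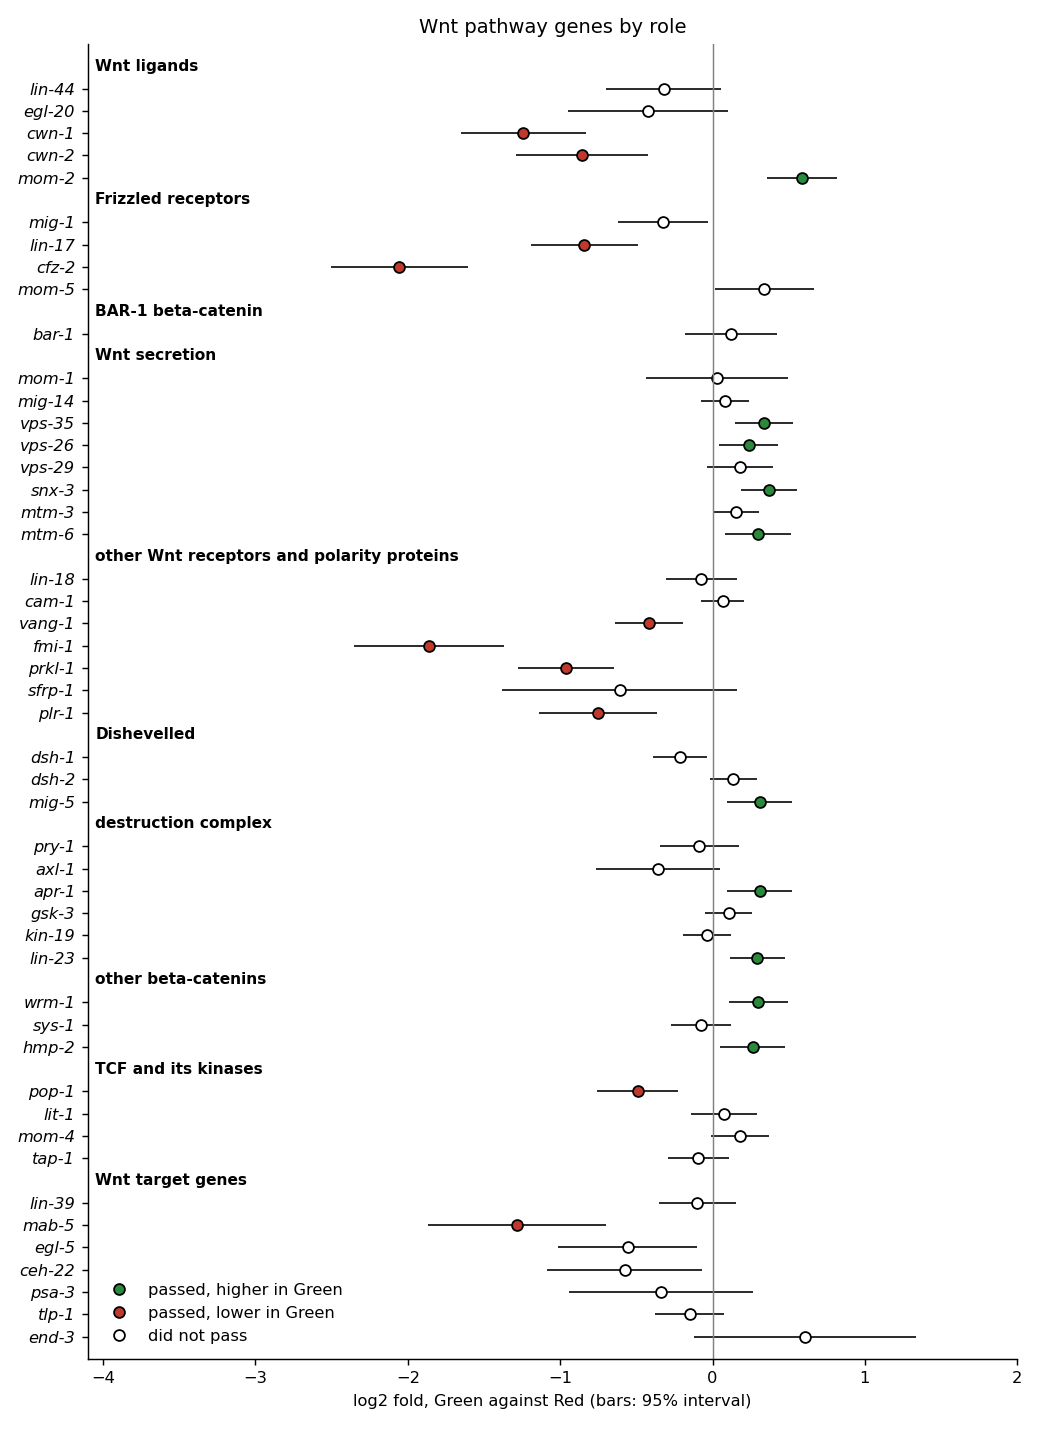
Log2 folds, Green against Red (x axis), of the 10 genes and of 38 other pathway genes tested (y axis), grouped by role. Points are folds from limma, bars are 95% intervals without adjustment for multiple tests, and fill marks genes past an adjusted p of 0.05; the largest folds are those of cfz-2 (-2.06) and fmi-1 (-1.86).

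Cytoplasmic and nuclear components were counted by role, where 19.02% of all genes tested passed as higher and 20.1% as lower. These lists are short, and none was tested as a set. Of 3 Dishevelled genes 1 rose and 0 fell, of 6 destruction complex genes 2 rose and 0 fell, of 3 other beta-catenins 2 rose and 0 fell, and of 4 genes for TCF and its kinases 1 fell and 0 rose. The Dishevelled gene mig-5 rose, at 0.31, as did apr-1 (APC) and lin-23, an F-box gene grouped with the destruction complex, at 0.31 and 0.29. Among the other beta-catenins wrm-1 and hmp-2 rose, at 0.30 and 0.26, and sys-1 had -0.08 (limma adjusted p = 0.53), or 0.051 with median centring. None of mig-5, apr-1, lin-23, wrm-1 and hmp-2 passed under quantile normalization, and mig-5 and apr-1 also missed the threshold without Green replicate 3 or any 1 of Red replicates 2, 4 and 5. hmp-2 missed the threshold in 12 of 23 alternatives. The TCF gene pop-1 fell. Its normalized counts averaged 3375 ± 266 in Green worms and 4833 ± 1159 in Red worms (SD, n = 6 each), and 6 of 6 batches had the lower value in Green. The log2 fold of pop-1 was -0.49 (limma adjusted p = 0.0072).

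Target genes of the pathway mostly did not pass. Of 7 tested, 1 fell and 0 rose, beside 20.1% and 19.02% of all genes tested. The gene that fell was the Hox gene mab-5, which BAR-1 activates in migrating neuroblasts. Its normalized counts averaged 40.1 ± 17.9 in Green worms and 93.1 ± 20.5 in Red worms (SD, n = 6 each), with a log2 fold of -1.28 (limma adjusted p = 0.0028). The Hox gene egl-5 and the Dishevelled gene dsh-1, named after their values were seen, had log2 folds of -0.56 and -0.22 and limma adjusted p of 0.0508 for each. With the batch as a block both passed (limma adjusted p = 0.025 and 0.040), and each passed in 7 of 23 alternatives, both without Red replicate 1 or Red replicate 3. The adjusted p of egl-5 reached 0.36 with quantile normalization, at a log2 fold of -0.28, and that of dsh-1 reached 0.46 with median centring, at -0.089.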

How the data were processed

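RNA of whole worms was read as mRNA libraries made with a stranded kit, per the labels' protocols. Build WBcel235 and the tools STAR, Salmon 0.14.2, DESeq2, FastQC 0.11.8 and MultiQC are named, without roles, per the submitters' processing notes. No source used here states their settings or the use of strand. The deposited values are a normalized signal, gene counts that the authors divided by 1 size factor per library. Reads were recovered from them within 0.001 of whole numbers. This is less decisive in Red replicate 2, where the size factor was near 1.

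Positions and exon lengths came from the Ensembl release 115 annotation, which holds 21896 of the 21982 identifiers. The table stores 11 symbols as dates, so apr-1 was found by its identifier. elt-5 had no row under that name. cwn-2, mom-5 and bar-1 share 50, 66 and 17 exonic bases with genes on the opposite strand.

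limma 3.58.1 (R 4.3.3) with eBayes trend was fitted without the batch over 14618 genes of mean 10 or more, with a pseudocount of 1. Alternatives were a batch block, edgeR 4.0.16, DESeq2 1.42.0, other pseudocounts, filters and scalings, robust eBayes, and leaving out libraries. The labels pair libraries by batch, and deviations from group means correlated within batches by 0.11 to 0.37 across genes, which are not independent replicates. Replicate libraries all differed by more than sampling noise. The fit was tested on simulated data. Figures used Python 3.11.15 and matplotlib 3.10.9.

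The 10 genes and the lists were chosen with earlier results of these data known. Named genes are the 10, pathway genes past the threshold, and the 2 genes of mean at least 50 nearest each called gene. Also named, whatever their values, are pop-1, sys-1, wrm-1, hmp-2, mig-14, cam-1, lin-18 and sfrp-1, of which pop-1, wrm-1 and hmp-2 passed. egl-5, dsh-1, end-1, W01B6.3 and single marker genes were named outside this rule.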

Additional observations from a re-analysis of the deposited data

Results flagged for a closer look

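In 64 groups of 6 libraries, covering 32 genes named in the text, 6 values lay far from the other 5 of their group by Dixon's criterion for 6 values, and chance gives about 1 in 20. Green replicate 3 had 13368.5 normalized counts of mom-2, where the next Green library had 11314. The same library had 6591 of mtm-6 and 9351 of mig-5, with the next Green libraries at 5900 and 8185. Red replicate 6 had 569.6 of mig-1 and 7020.0 of pop-1, with the next Red libraries at 397 and 5046. Green replicate 6 had 3896 of pop-1, with the next Green library at 3374.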

How the results depend on the processing

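cfz-2, cwn-1, cwn-2, lin-17 and mom-2 passed in the same direction in each of 23 alternatives. Their log2 folds ran from -2.21 to -1.93, -1.40 to -1.09, -0.996 to -0.600, -0.97 to -0.71 and 0.42 to 0.71. The number of the 10 genes that passed was 5 to 7, against 5 in the reported fit, and 5 to 7 with any 1 library left out. Leaving out 1 library gave 4451 to 8009 called genes of all tested and 10 to 18 of the other pathway genes, against 5719 and 15. With the batch as a block, which pairs the libraries, 6701 genes, 6 of the 10 (adding mom-5) and 17 other pathway genes passed, and it changed no call of the other 9. egl-20 passed without Red replicate 6 or without batch 6 (log2 folds of -0.65 and -0.61). mig-1 passed without Red replicate 3, with edgeR and with DESeq2, and mom-5 passed without Red replicate 3, with the block and with median centring. Under quantile normalization the folds of lin-44, mig-14, lin-18 and cam-1 were 0.028, -0.078, 0.087 and -0.098, and with median centring those of lin-18 and sys-1 were 0.054 and 0.051, each the opposite sign of the reported one; the cause was not tested. Quantile normalization called 2 of the other pathway genes higher, against 9, and leaving out any 1 of Green replicate 3 or Red replicates 2, 4 and 5 called 4. mtm-6, mig-5 and apr-1 each missed the threshold in 5 alternatives, and vps-35, lin-23 and wrm-1 in 1, while sys-1 passed under quantile normalization (-0.23). Median centring and the block each called 2 of the 10 genes higher. Without Red replicate 6, 4287 genes passed as higher. Depth limits lin-44, with 16 to 71 reads a library. Reads were also few in Green libraries for cwn-2, at 21 to 132, and for mab-5, at 19 to 63.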
